A study of Mus musculus with 26 samples.

Results

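The 31 genes described here encode the enzymes that take glucose to lactate, the enzymes of the pentose phosphate pathway, and the pyruvate dehydrogenase complex with its kinases. They were listed by gene symbol with earlier results of these data known, although the rule itself uses no measured value, and all 31 were among the 46517 symbols of the deposited table. All 31 also passed the filter on low values, which kept the 16372 symbols with a normalized count of at least 10 in at least 2 libraries. Of the 31, 9 act between glucose and the triose phosphates, 8 between the triose phosphates and lactate, 7 in the pentose phosphate pathway and 6 at the entry of pyruvate into mitochondria. The remaining member, Pfkfb3, makes fructose 2,6-bisphosphate, an activator of phosphofructokinase.

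Bulk RNA sequencing was performed on thymocytes of 3 TCR transgenic mouse lines whose MHC-I-restricted receptors have low (TG6), intermediate (F5) or high (OT-1) self-reactivity. Each line gave 3 sorted populations. Cells of the early stage of positive selection were CD4+CD8+ and CXCR4+CCR7-, those of the late stage CD4+CD8+ but CXCR4-CCR7+, and those of the mature CD8SP stage CD4-CD8+ with the CXCR4-CCR7+ phenotype of the late stage. There were 3 mice per line and 3 libraries per group, except for late TG6 with 2, which gives 26 libraries in 9 groups. OT-1 mice carried the OT-1 transgene on a Rag2KO background and F5 mice the F5 transgene on a Rag1KO background, both on the C57/BL6 strain. TG6 mice carried the TG6 transgene and the H2b/d haplotype on a C57/BL6 x B6.C-H2d/bByJ background and were Rag sufficient, so the lines differ in Rag genes and MHC as well as in the receptor. Their age is not given in the labels, and the paper states a range in weeks over its experiments but none for the sequenced mice alone. Levels below are normalized counts, which correct for library depth but not for gene length, and are given in the order of the replicates. Differences are log2 fold changes ± SE from limma with p adjusted over all 16372 symbols by the Benjamini-Hochberg method, and "called" means an adjusted p under 0.05. Libraries of a line with the same replicate number were read as 1 mouse, because 3 mice per line were sorted into the 3 populations, but the labels do not state this for each number. This reading is least certain for late TG6, whose 2 libraries are labelled in another way than the rest of the line (TG62B).

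Glycolysis splits glucose into pyruvate in the cytosol and yields ATP quickly. Lactate dehydrogenase turns pyruvate into lactate, and pyruvate dehydrogenase turns it into acetyl-CoA in mitochondria, where pyruvate dehydrogenase kinases switch the complex off. The pentose phosphate pathway branches off glucose 6-phosphate and supplies NADPH and ribose for nucleotides. In T cells, glycolysis is known to rise on activation and during proliferation.

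Totals per library lay between 16134786 and 18944173 normalized counts. The 6 T-lineage markers were detected in every library and summed to 43459 to 66555, and the markers of B cells summed to at most 340, of thymic epithelium to at most 91.0 and of NK cells and granulocytes to at most 16.3. Macrophage and dendritic cell markers summed to 265 to 845 in OT-1 and 101 to 169 in TG6 at the early stage. There 6 of 8 were called higher in OT-1, against 15.4% of all symbols. These markers summed to 361 to 409 in OT-1 and 509 to 851 in TG6 at the late stage. At the mature stage they summed to 677 to 942 and 935 to 1919, where the highest was TG6 replicate 3. At each of these stages none was called higher (9.34% and 4.67% of all symbols) and 1 was called lower in OT-1 (6.21% and 5.08%). Without TG6 mature replicate 3 none was called at the mature stage (1 of 8 at an unadjusted p under 0.05). The difference of OT-1 from TG6 changed from the early stage in 2 of the 8, Itgax and Flt3, both downwards, at the late and at the mature stage (1.09% and 2.91% of all symbols). Without that library, the change at the mature stage was called in Itgax alone. The 6 erythroid markers summed to 33.9 to 1280.5 over all libraries, with OT-1 replicate 3 the highest of each stage (1280.5, 1102 and 1165), and to 336 to 1280.5 in OT-1 and 194 to 355 in TG6 at the early stage. None of the 5 erythroid markers tested was called between OT-1 and TG6 at any stage in limma, and each 95% confidence interval held 0. The part of these cells in the results was not tested. Of the sort markers, Ccr7 rose with its gate, from a mean of 147 in TG6 at the early to 8052 at the late stage. Cxcr4 fell to the late stage in TG6 (-2.25 ± 0.48, adjusted p = 0.0011) and OT-1 (-1.41 ± 0.43, adjusted p = 0.018), while the change in F5 was -1.10 ± 0.43 (SE, adjusted p = 0.061). It did not follow its gate at the mature stage of OT-1, where the CXCR4- cells had a mean of 2159.8, against 846 at the late stage and 2022 in the CXCR4+ cells of the early stage. At the early stage Ccr7 was higher in OT-1 than in TG6 by 2.43 ± 0.35 (SE, adjusted p = 1.8e-05) on the log2 scale and Cxcr4 was lower (-1.41 ± 0.43, adjusted p = 0.018). Of the other sort markers, Cd8a and Cd8b1 were called lower in OT-1 than in either other line at all 3 stages, with early differences from TG6 of -1.10 ± 0.12 (SE, adjusted p = 5.8e-07) and -1.37 ± 0.15 (SE, adjusted p = 3.5e-07). Cd4 was called lower in OT-1 against TG6 at the early stage (-1.46 ± 0.50, adjusted p = 0.032) and against F5 at the late stage (-1.74 ± 0.50, adjusted p = 0.013). The part of these differences between the sorted populations in the results was not tested. Because these are bulk samples, fewer cells of a type and less RNA per cell cannot be told apart.

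A further measured difference moved with the stages. The 20 cell division genes, among them Mki67 and Top2a, summed to 63500 to 129670 at the early stage, to 2787 to 13476 at the late stage and to 24148 to 110310 at the mature stage. Within the mature stage, TG6 replicate 3 held 91698, against 24148 and 26587 in the other two TG6 libraries. This library was also the highest of the 3 for 23 of the 31 members, against 40.8% of all symbols tested. F5 mature replicate 2 had the highest sum in its group (76524, against 26320 and 42254) and was the highest for 18 of the 31 members, against 35.6% of all symbols. The counts of members called that involve mature TG6 are therefore given with and without replicate 3.

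The comparison of OT-1 with TG6 asks how these genes differ between high and low self-reactivity. At the early stage 17 of the 31 members were higher in OT-1 and 5 were lower, at an adjusted p under 0.05 in limma. Of all symbols tested, 15.4% were called higher and 12.4% lower in that comparison. At the late stage 11 members were higher and 2 lower, against 9.34% and 6.21% of all symbols, and at the mature stage 4 were higher and 3 lower, against 4.67% and 5.08%. The median log2 fold change of the 31 members was 0.44, 0.39 and 0.20 at the 3 stages, while that of all symbols was within 0.01 of 0. With libraries scaled to equal totals, the median of all symbols moved to -0.11, -0.13 and -0.10, and the member median lay 0.44, 0.38 and 0.21 above it.

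The number of calls at the later stages depended on single libraries and on the scaling. At the late stage 13 members were called, and the number fell to 8 without OT-1 replicate 3. It also fell without either TG6 library, which leaves a lone sample in that group. For fits with a library left out, no share of all symbols is given here. Whether the members lost more calls than all symbols was therefore not shown. Under scaling to equal totals, 4 members were higher and 2 lower at the late stage (6.66% and 10.4% of all symbols). The late calls lost on that scale were Aldoa, Tpi1, Pgk1, Pgam1, Pgd, Tkt and Pdha1, at adjusted p of 0.052 to 0.12. On that scale 2 were higher and 3 lower at the mature stage (3.13% and 7.13%). At the early stage 16 were higher and 5 lower (11.8% and 17.1%), and 19 to 21 were called when any 1 library was left out.

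Across stages, Pgk1, Pgam1, Pkm and Ldha were called higher at all 3 stages in OT-1 than in TG6, and Ldhb and Pdk1 were called lower at all 3. Of all symbols, 2.05% were higher and 2.28% lower at all 3. The means of the 3 lines stood in the order OT-1, F5, TG6 from high to low for 19 members at the early stage (24.8% of all symbols), 14 at the late stage (20.1%) and 2 at the mature stage (12.6%). The reverse order held for 5 members at the early stage (26.0% of all symbols), 1 at the late stage (16.8%) and 2 at the mature stage (15.2%). The 5 early ones were Pfkp, Ldhb, Pdk1, Pdk2 and Pfkfb3. The mature means of TG6 include replicate 3, which was far above its group for Pgk1, Pgam1, Ldha and Tkt. The mature order without this library was not counted.

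**Figure D1:**
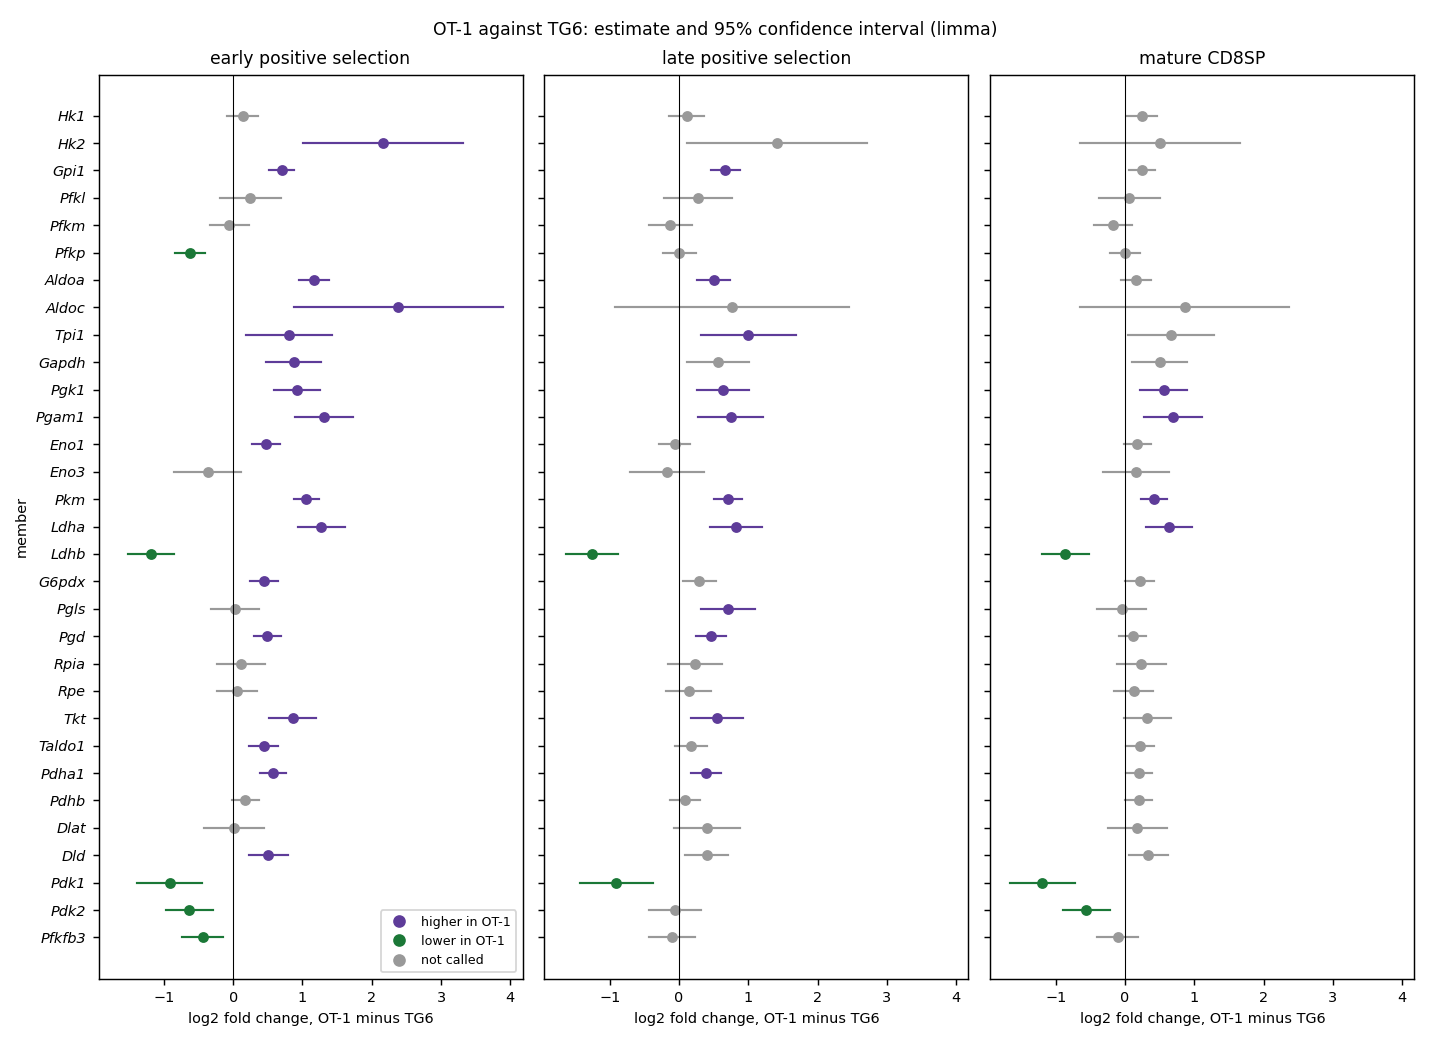
Log2 fold change of OT-1 minus TG6 for the 31 members (rows) at the early stage, the late stage and at the mature stage, with the limma estimate as a point and its 95% confidence interval as a line. Purple marks members called higher in OT-1 (17, 11 and 4), green those called lower (5, 2 and 3) and grey those not called.

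Of the 9 genes between glucose and the triose phosphates, 5 were higher and 1 was lower in OT-1 than in TG6 at the early stage, against 15.4% and 12.4% of all symbols. Aldoa encodes the aldolase that splits fructose 1,6-bisphosphate. Its early normalized counts were 1785, 1851 and 1695 in TG6, 2295, 2238 and 2541 in F5 and 3962, 4011 and 3982 in OT-1. The 3 lines did not overlap, and Aldoa was higher in OT-1 than in TG6 by 1.17 ± 0.10 (SE, adjusted p = 2.7e-08) on the log2 scale, higher in OT-1 than in F5 by 0.76 ± 0.10 (SE, adjusted p = 2.3e-05) and higher in F5 than in TG6 by 0.41 ± 0.10 (SE, adjusted p = 0.018). The late values were 3416 and 3258 in TG6, 3804, 4064 and 3790.2 in F5 and 4707, 3952 and 5614 in OT-1, and the difference of OT-1 from TG6 was 0.50 ± 0.12 (SE, adjusted p = 0.0047). At the mature stage the OT-1 and TG6 libraries overlapped, and the difference was 0.16 ± 0.10 (SE, adjusted p = 0.35).

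Gpi1, the isomerase that follows hexokinase, had 4952, 4893 and 4910.1 in TG6, 5625, 5519 and 5842 in F5 and 7854, 8303 and 7830.4 in OT-1 at the early stage. OT-1 was above both other lines at this stage, by 0.70 ± 0.09 (SE, adjusted p = 4.2e-06) against TG6 and by 0.50 ± 0.09 (SE, adjusted p = 0.00051) against F5. The late values were 5459 and 5555 in TG6, 6804, 6122 and 7382 in F5 and 8334, 8215 and 9759 in OT-1, with OT-1 again above all TG6 libraries (0.67 ± 0.10, adjusted p = 5.7e-05). Mature TG6 libraries held 6271, 6533 and 7533 and mature OT-1 libraries 7682, 7955 and 8451, a difference of 0.25 ± 0.09 (SE, adjusted p = 0.082).

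Tpi1, which interconverts the 2 triose phosphates, had 743, 719 and 931 in TG6, 1222, 1621 and 1269.9 in F5 and 1237, 1428 and 1517 in OT-1 at the early stage. It was lower in every TG6 library than in every OT-1 library (0.81 ± 0.30, adjusted p = 0.046), while F5 and OT-1 overlapped. This early call was lost with libraries scaled to equal totals (adjusted p = 0.076). Late TG6 libraries had 568 and 431 and OT-1 1079, 824 and 1090.1, a difference of 1.00 ± 0.33 (SE, adjusted p = 0.045) that was not called with the mouse as a block (adjusted p = 0.075).

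Hexokinase takes the first step. Hk1 was the main form, with group means from 1951 in early TG6 to 2662 in mature OT-1, and it differed between OT-1 and TG6 by 0.14 ± 0.11 (SE, adjusted p = 0.37) at the early stage. Hk2, the inducible form known from activated T cells, was far lower. Its early values were 36.8, 53.8 and 75.8 in TG6, 51.7, 49.7 and 23.9 in F5 and 272, 394 and 132 in OT-1, so that every OT-1 library lay above every other early library. Hk2 was higher in OT-1 than in TG6 by 2.16 ± 0.56 (SE, adjusted p = 0.0061) and than in F5 by 2.58 ± 0.56 (SE, adjusted p = 0.003). Per kb of transcript, Hk2 made up 7.87% ± 3.55 (SD, n = 3) of Hk1 plus Hk2 in early OT-1 and 1.94% ± 0.676 (SD, n = 3) in early TG6.

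Of the 3 genes of phosphofructokinase, the main control point of glycolysis, Pfkp alone was called between OT-1 and TG6 at the early stage, and it was lower in OT-1. Pfkp had 2218, 2462 and 2306 in TG6, 2291, 2121 and 1859 in F5 and 1596, 1424 and 1506 in OT-1 at the early stage, where all OT-1 libraries were below all TG6 and F5 libraries. The difference of OT-1 was -0.63 ± 0.10 (SE, adjusted p = 0.00011) from TG6 and -0.47 ± 0.10 (SE, adjusted p = 0.0038) from F5. Late values of Pfkp were 2523 and 2471 in TG6, 2471, 2432 and 2683 in F5 and 2655, 2676 and 2204 in OT-1, the lines overlapped, and the difference of OT-1 from TG6 was 0.00 ± 0.12 (SE, adjusted p = 1). Pfkl differed between OT-1 and TG6 by 0.25 ± 0.21 (SE, adjusted p = 0.41) at the early stage and Pfkm by -0.05 ± 0.13 (SE, adjusted p = 0.8), and neither was called there or at the later stages. Per kb of transcript, the share of Pfkp among the 3 phosphofructokinase genes was 58.0% ± 1.41 (SD, n = 3) in early TG6 and 45.5% ± 3.26 (SD, n = 3) in early OT-1.

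Aldoc, a second aldolase gene, was near the floor of the data, with 1.61 to 38.2 normalized counts over the 26 libraries. Its call at the early stage (2.39 ± 0.73, adjusted p = 0.018) rests on group means of 20.5 and 3.41. Pfkfb3 had 1544, 1461 and 1342 in TG6, 1092, 1117 and 1169 in F5 and 1137, 978 and 1088 in OT-1 at the early stage, where TG6 was highest, and OT-1 was lower than TG6 (-0.44 ± 0.14, adjusted p = 0.025). It was not called between lines at the other stages.

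Of the 8 genes between the triose phosphates and lactate, 6 were higher and 1 was lower in OT-1 than in TG6 at the early stage, against the same 15.4% and 12.4%. Gapdh, the dehydrogenase that forms NADH in glycolysis, had the highest counts of the 31 members. Its early values were 19699, 21046 and 21264 in TG6, 26370.1, 25712 and 25622 in F5 and 35868, 39382 and 38243 in OT-1. No libraries of different lines overlapped, and Gapdh was higher in OT-1 than in TG6 by 0.87 ± 0.19 (SE, adjusted p = 0.0017). Its late values were 14531 and 14449.5 in TG6, 19601, 17054 and 15631 in F5 and 22544, 20035 and 21587 in OT-1, and the difference of 0.56 ± 0.21 (SE, adjusted p = 0.081) was not called.

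Pgk1 encodes phosphoglycerate kinase, the first step of glycolysis that yields ATP. Its values were 2821, 2706 and 2877 in TG6, 3653, 3618 and 3539 in F5 and 5173, 5498 and 5203 in OT-1 at the early stage, with OT-1 above both other lines. Later they were 2544 and 2502 in TG6, 2644, 2749 and 2406 in F5 and 4054, 3624 and 4053 in OT-1 at the late stage, and at the mature stage 3456, 3261 and 6404 in TG6, 3193, 4360.5 and 3381 in F5 and 6124, 5994 and 6253 in OT-1. All OT-1 libraries were above all TG6 libraries at the early and late stages, and mature TG6 replicate 3 alone exceeded the mature OT-1 libraries. Pgk1 was higher in OT-1 than in TG6 by 0.92 ± 0.16 (SE, adjusted p = 0.0002), 0.63 ± 0.18 (SE, adjusted p = 0.02) and 0.56 ± 0.16 (SE, adjusted p = 0.032) at the 3 stages. The last 2 calls were lost with libraries scaled to equal totals, at adjusted p of 0.054 and 0.057.

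Pgam1, the phosphoglycerate mutase, showed the largest early fold among these 8 genes. Early values of Pgam1 were 713, 845 and 922 in TG6, 1145, 1198 and 1090.1 in F5 and 2049, 1985 and 2108 in OT-1. Its late values were 859 and 939.7 in TG6, 792, 850.2 and 679.6 in F5 and 1520.5, 1289 and 1748 in OT-1, and its mature values were 1547, 1470.5 and 3124 in TG6, 1369.8, 1977 and 1452 in F5 and 3096, 2833 and 3447 in OT-1. Each OT-1 library was above every TG6 library at the early and late stages, and mature TG6 replicate 3 lay within the OT-1 range. The differences of OT-1 from TG6 were 1.32 ± 0.20 (SE, adjusted p = 4.2e-05), 0.75 ± 0.22 (SE, adjusted p = 0.027) and 0.70 ± 0.20 (SE, adjusted p = 0.032). With libraries scaled to equal totals, the late and mature calls had adjusted p of 0.06 and 0.051.

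Pkm, the pyruvate kinase of T cells, makes pyruvate and ATP. Early normalized counts were 6252, 6889 and 6976 in TG6, 7638, 7132 and 7783 in F5 and 13511, 14246 and 13995 in OT-1. Late counts were 10879.6 and 10701 in TG6, 10153, 8064 and 9682 in F5 and 17661, 16838 and 18390.1 in OT-1, and counts at the mature stage 13398, 13151 and 16856 in TG6, 11571, 11379 and 11769 in F5 and 19116, 19390.0 and 19215 in OT-1. At each stage every OT-1 library lay above every library of the other lines, and F5 was the lowest line in the last 2 stages. Pkm was higher in OT-1 than in TG6 by 1.05 ± 0.09 (SE, adjusted p = 1.3e-08), 0.71 ± 0.10 (SE, adjusted p = 2.5e-05) and 0.42 ± 0.09 (SE, adjusted p = 0.0036). The gene has alternatively spliced forms known as M1 and M2, which a table by gene symbol does not separate.

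Enolase was called between OT-1 and TG6 at the early stage alone. Eno1 had 5562, 5726 and 5895 in TG6, 7544, 6392 and 7361 in F5 and 7174, 8542 and 8289 in OT-1 at the early stage, and the difference was 0.48 ± 0.10 (SE, adjusted p = 0.00081). It was -0.06 ± 0.11 (SE, adjusted p = 0.74) at the late stage and 0.18 ± 0.10 (SE, adjusted p = 0.25) at the mature stage. Eno3, known as the muscle form, made up 2.04% ± 0.212 (SD, n = 3) of the 2 genes per kb in early OT-1 and 3.63% ± 0.444 (SD, n = 3) in early TG6. Near-identical copies can take reads from these genes, but Eno1b had at most 104 normalized counts and the Gapdh copy Gm3839 at most 84.6 in any library.

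**Figure D2:**
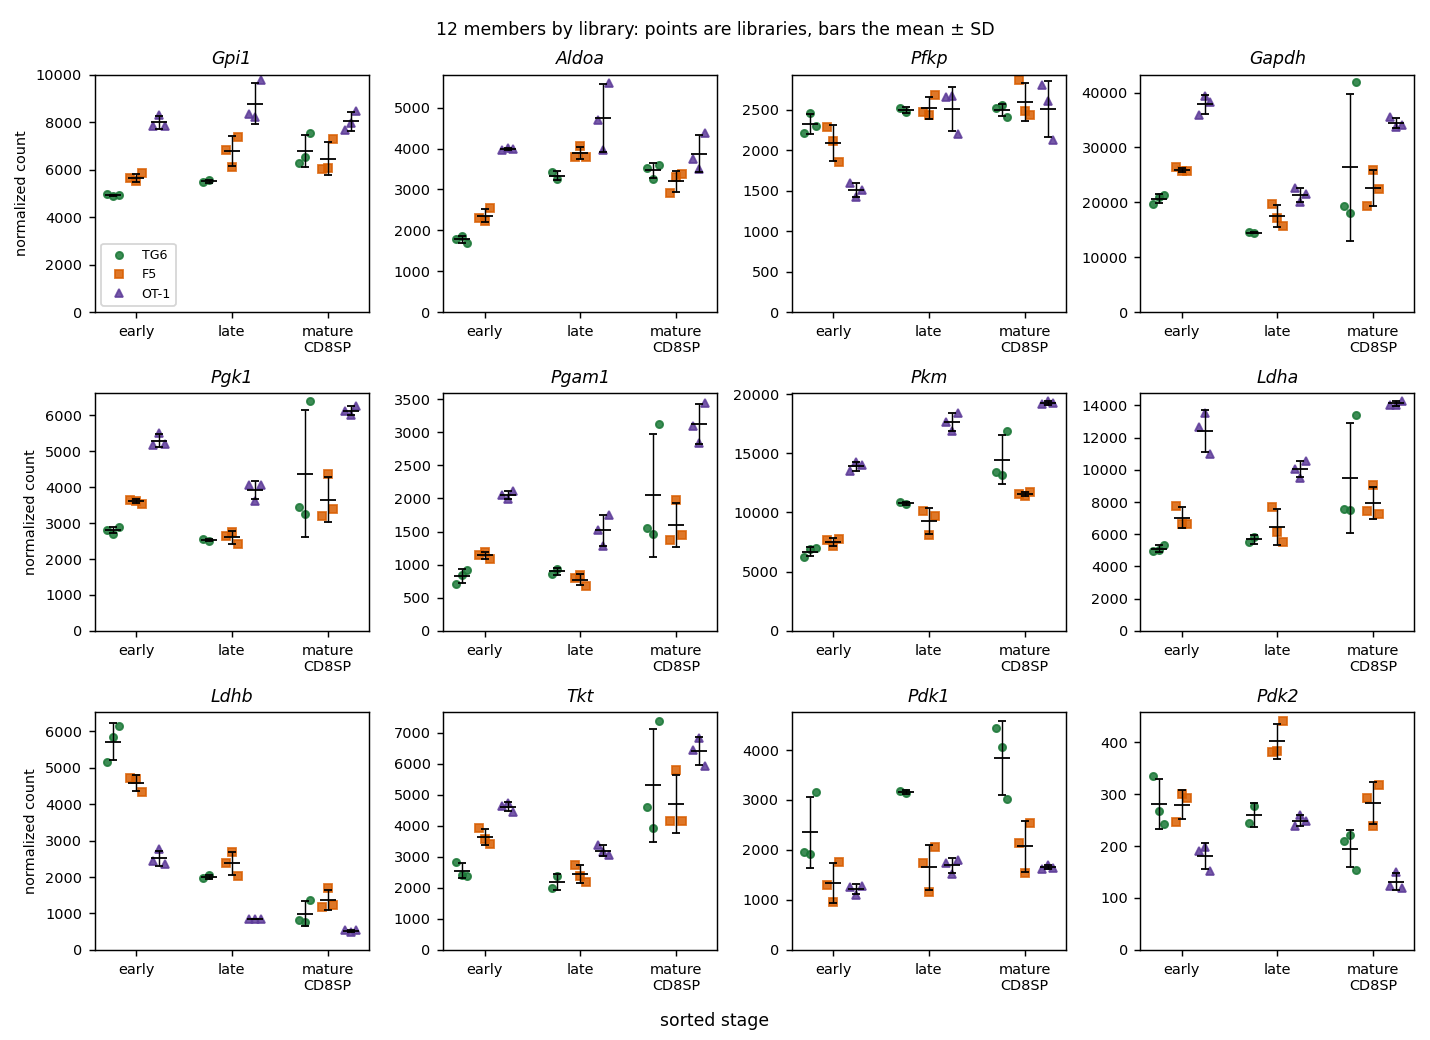
Normalized counts of 12 members (1 panel each, axis from 0) in all 26 libraries, by sorted stage (x axis) and line, with each point a library and black bars the mean ± SD of the group. Pkm and Ldha are highest in OT-1, Ldhb is lowest in OT-1 and Pdk1 is highest in TG6, and the TG6 mature library far above its group for Gapdh (41840), Pgk1, Pgam1, Ldha and Tkt is replicate 3.

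The lactate dehydrogenase genes moved in opposite directions. Ldha encodes the subunit known to favour the conversion of pyruvate to lactate, and Ldhb the subunit known to favour the reverse. The 2 genes lie at chr7:46841475-46855627 and chr6:142490249-142507957 in GRCm38. Early values of Ldha were 4948, 5043 and 5336 in TG6, 7759, 6651 and 6645 in F5 and 12657, 13553 and 10986 in OT-1, and those of Ldhb were 5149, 5853 and 6149.9 in TG6, 4715, 4702 and 4337 in F5 and 2426, 2756 and 2347 in OT-1. In late libraries Ldha had 5497 and 5855 in TG6, 7685, 6169 and 5491 in F5 and 10064, 9508 and 10519 in OT-1, and Ldhb had 1972 and 2050.1 in TG6, 2395, 2684 and 2041 in F5 and 841, 848 and 841 in OT-1. At the mature stage Ldha had 7553, 7497 and 13406 in TG6, 7435, 9067 and 7262 in F5 and 14036, 14046 and 14267 in OT-1. Mature values of Ldhb were 833, 770.4 and 1380.0 in TG6, 1186, 1693 and 1222 in F5 and 537, 495 and 554 in OT-1.

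At each of the 3 stages every OT-1 library was above every TG6 and F5 library for Ldha and below every one of them for Ldhb. Ldha was higher in OT-1 than in TG6 by 1.27 ± 0.16 (SE, adjusted p = 3.8e-06), 0.82 ± 0.18 (SE, adjusted p = 0.0029) and 0.63 ± 0.16 (SE, adjusted p = 0.015) at the 3 stages. For Ldhb, which was lower in OT-1, the differences were -1.19 ± 0.16 (SE, adjusted p = 1.1e-05), -1.25 ± 0.18 (SE, adjusted p = 4e-05) and -0.86 ± 0.16 (SE, adjusted p = 0.0013). Against F5, Ldha was higher by 0.82 ± 0.16 (SE, adjusted p = 0.0013), 0.65 ± 0.16 (SE, adjusted p = 0.0049) and 0.84 ± 0.16 (SE, adjusted p = 0.00076). The differences of OT-1 from F5 in Ldhb were -0.87 ± 0.16 (SE, adjusted p = 0.00078), -1.48 ± 0.16 (SE, adjusted p = 6.4e-07) and -1.35 ± 0.16 (SE, adjusted p = 4.1e-06). Neither gene was called between F5 and TG6 at any stage, but without mature TG6 replicate 3 Ldhb was higher in F5 than in TG6 by 0.75 (adjusted p = 0.00042).

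Counts per kb of transcript allow the 2 genes to be set against each other. At the early stage Ldha made up 39.2% ± 1.46 of Ldha plus Ldhb in TG6, 52.3% ± 1.89 in F5 and 78.0% ± 0.932 in OT-1 (SD, n = 3 each). The late share was 67.0% ± 0.380 (SD, n = 2), 66.0% ± 3.73 (SD, n = 3) and 89.5% ± 0.517 (SD, n = 3). The mature share was 87.2% ± 0.451, 80.7% ± 1.25 and 95% ± 0.244 (SD, n = 3 each). Per kb of coding length the early shares were 45.3% in TG6, 58.6% in F5 and 82.0% in OT-1. Every early OT-1 library had a higher share than every late TG6 and late F5 library. In mature TG6 the share of replicate 3 was within the narrow range of its group, 86.7 to 87.5%, although both of its counts were higher than those of the other 2 libraries. The late TG6 and late F5 means differed by less than the SD of F5.

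**Figure D3:**
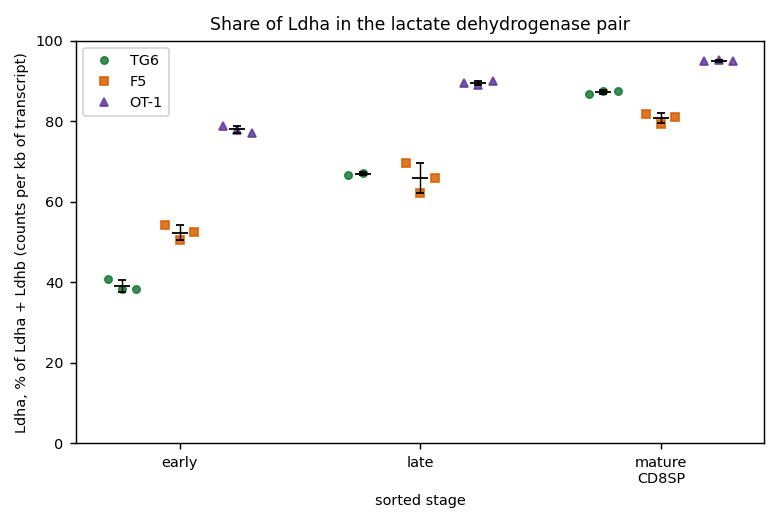
Ldha as a percentage of Ldha plus Ldhb, in normalized counts per kb of transcript, by sorted stage (x axis) and line. Points are libraries and black bars the mean ± SD, with early means of 39.2% in TG6, 52.3% in F5 and 78.0% in OT-1 and mature means of 87.2%, 80.7% and 95%.

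The upstream sequences of 3 of the 4 genes called higher against TG6 in OT-1 cells of all 3 stages, and of Ldhb, are shown so that the opposed pair can be read beside Pgk1 and Pgam1. The 250 bases upstream of the first listed RefSeq start site (of 2 for Ldha) were taken from the GRCm38.p6 promoter table, in which all 31 members had at least 1 entry. Capitals mark ACGTG on either strand, a form of the core of the element read by hypoxia-inducible factors. The other form, GCGTG, was not searched or marked, and it stands in the Ldhb and Pgam1 windows. CACGTG, the E box read by Myc and related factors, contains ACGTG on both strands, so its 6 letters are capitals as well. The Ldha window lies inside the annotated gene, before a downstream start site, and none of the 4 windows overlaps an annotated exon. The first listed window of Pkm, the remaining gene called at all 3 stages (chr9:59656326-59656575), is not printed because it overlaps an annotated exon, and it held no ACGTG.
Ldha (chr7:46845554-46845803, plus strand): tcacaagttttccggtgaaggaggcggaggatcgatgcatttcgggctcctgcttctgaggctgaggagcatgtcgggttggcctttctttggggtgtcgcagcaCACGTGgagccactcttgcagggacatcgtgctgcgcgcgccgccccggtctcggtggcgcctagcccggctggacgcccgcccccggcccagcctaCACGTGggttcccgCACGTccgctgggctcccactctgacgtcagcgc
Pgk1 (chrX:106186850-106187099, plus strand): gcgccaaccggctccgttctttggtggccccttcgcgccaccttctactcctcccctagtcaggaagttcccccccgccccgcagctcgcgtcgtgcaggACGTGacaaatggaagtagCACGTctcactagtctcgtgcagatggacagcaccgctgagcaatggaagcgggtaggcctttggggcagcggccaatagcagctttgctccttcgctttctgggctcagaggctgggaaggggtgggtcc
Pgam1 (chr19:41911621-41911870, plus strand): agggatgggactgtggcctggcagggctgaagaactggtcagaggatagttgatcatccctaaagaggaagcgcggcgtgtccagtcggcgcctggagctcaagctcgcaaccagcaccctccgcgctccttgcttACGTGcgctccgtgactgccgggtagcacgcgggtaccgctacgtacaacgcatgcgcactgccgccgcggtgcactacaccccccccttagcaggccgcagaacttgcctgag
Ldhb (chr6:142507958-142508207, minus strand): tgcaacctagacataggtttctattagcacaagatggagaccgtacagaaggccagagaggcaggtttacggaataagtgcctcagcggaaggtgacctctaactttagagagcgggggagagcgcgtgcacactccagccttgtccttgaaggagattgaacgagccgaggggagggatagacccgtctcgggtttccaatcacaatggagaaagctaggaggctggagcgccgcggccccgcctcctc
The upstream window of Ldha shown held 3 such stretches, 2 of them the E box, while the window of its other listed start site (chr7:46846832-46847081, not shown) held 0 of either. Pgk1 held 2 stretches and Pgam1 held 1, none within an E box, and ACGTG was not found on either strand of the Ldhb window. Over all start sites of the members, 13 of 46 windows (28.3%) held ACGTG on either strand, against 16.6% of all 32851 windows of the same length. The E box was in 4 of 46 member windows (8.7%) and in 6.0% of all windows. Windows of 1 gene can overlap, and 2 Aldoa windows held the same stretch. Members with ACGTG in at least 1 window included Hk2, Aldoa, Pkm (in the window of its other start site alone) and, of the genes lower in OT-1, Pdk2 and Pfkfb3.

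In the pentose phosphate pathway 4 of 7 genes were called higher in early OT-1 than in early TG6 and none was lower (15.4% and 12.4% of all symbols). Tkt encodes transketolase, which joins the pathway back to glycolysis. Its early values were 2828, 2413 and 2394 in TG6, 3914, 3563 and 3423 in F5 and 4633, 4736 and 4453 in OT-1, with all OT-1 libraries above all others. It was higher in OT-1 than in TG6 by 0.86 ± 0.16 (SE, adjusted p = 0.00047) at the early and 0.55 ± 0.18 (SE, adjusted p = 0.045) at the late stage, the latter not called with the mouse as a block (adjusted p = 0.089). Mature values were 4594, 3941 and 7376 in TG6, 4165, 5788 and 4136 in F5 and 6424, 6835 and 5933 in OT-1, and TG6 replicate 3 exceeded every OT-1 library.

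The 2 dehydrogenases that form NADPH were both higher in early OT-1. G6pdx, the first and rate-limiting enzyme, had 565, 633 and 645 in TG6, 727, 733 and 756 in F5 and 812, 857 and 834 in OT-1 at the early stage, with a difference of 0.44 ± 0.10 (SE, adjusted p = 0.0022) between OT-1 and TG6. Pgd, the next dehydrogenase, had 985, 1043 and 983 in TG6, 1089, 1204 and 1096 in F5 and 1401, 1335 and 1507 in OT-1. Pgd was higher in OT-1 by 0.49 ± 0.09 (SE, adjusted p = 0.0004) at the early and 0.46 ± 0.10 (SE, adjusted p = 0.0034) at the late stage. Taldo1, the transaldolase, was higher in early OT-1 than in early TG6 by 0.44 ± 0.10 (SE, adjusted p = 0.0024). Pgls, which acts between the dehydrogenases, was called higher in OT-1 at the late stage alone (0.70 ± 0.19, adjusted p = 0.013), from 492 and 505 in TG6 and 837, 844 and 759 in OT-1. The isomerase Rpia and the epimerase Rpe were not called between OT-1 and TG6 at any stage, with 95% confidence intervals of -0.24 to 0.46 and -0.23 to 0.34 at the early stage.

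At the entry of pyruvate into mitochondria, the subunits and the kinases of pyruvate dehydrogenase differed. Pdha1, the catalytic alpha subunit that the kinases phosphorylate, had 3143, 3151 and 3088 in TG6, 3599, 3546 and 3572 in F5 and 4659.5, 4570.1 and 4769 in OT-1 at the early stage and was higher in OT-1 than in TG6 by 0.58 ± 0.09 (SE, adjusted p = 7.6e-05), with no overlap between lines. Dld, the dihydrolipoamide dehydrogenase subunit, was higher by 0.51 ± 0.13 (SE, adjusted p = 0.0077). Pdhb and Dlat were not called between lines at any stage, and their early differences of OT-1 from TG6 were 0.18 and 0.01 on the log2 scale (95% confidence intervals -0.02 to 0.37 and -0.42 to 0.44).

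Pdk1, one of the kinases that inactivate the complex, was highest in TG6. Early values of Pdk1 were 1967, 1921 and 3161 in TG6, 1300.3, 968 and 1753 in F5 and 1249, 1101 and 1286 in OT-1. Late values were 3186 and 3131 in TG6, 1730.2, 1167 and 2066 in F5 and 1734, 1529 and 1805 in OT-1, and at the mature stage 4437, 4054 and 3010.4 in TG6, 2138, 1533 and 2548 in F5 and 1625, 1697 and 1643 in OT-1. Every TG6 library was above every F5 and OT-1 library of its stage, while F5 and OT-1 overlapped. The differences of OT-1 from TG6 in Pdk1 were -0.92 ± 0.23 (SE, adjusted p = 0.0046), -0.91 ± 0.25 (SE, adjusted p = 0.018) and -1.19 ± 0.23 (SE, adjusted p = 0.0015). Those of F5 from TG6 were -0.81 ± 0.23 (SE, adjusted p = 0.034), -0.97 ± 0.25 (SE, adjusted p = 0.026) and -0.90 ± 0.23 (SE, adjusted p = 0.016), and those of OT-1 from F5, none of them called, were -0.11 ± 0.23 (SE, adjusted p = 0.81), 0.07 ± 0.23 (SE, adjusted p = 0.88) and -0.29 ± 0.23 (SE, adjusted p = 0.37). Pdk1 was thus called lower in F5 at all 3 stages, with no member called higher at all 3 (0.953% and 0.312% of all symbols), but none of these calls held when only the 2 groups entered the fit (adjusted p = 0.12, 0.18 and 0.16). Its level also varied between replicates, and F5 replicate 3 was the highest and F5 replicate 2 the lowest at all 3 stages.

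Pdk2, a second kinase of this family, was ordered otherwise. Early values of Pdk2 were 334, 267 and 243 in TG6, 247, 299 and 292 in F5 and 191, 199 and 152 in OT-1. Its late values were 243 and 277 in TG6, 382, 384 and 441 in F5 and 238, 259.6 and 248 in OT-1, and its mature values were 209, 222 and 154 in TG6, 292, 239 and 318 in F5 and 124, 150.3 and 120.0 in OT-1. At each stage every OT-1 library was below every F5 library, with differences of -0.63 ± 0.16 (SE, adjusted p = 0.012), -0.69 ± 0.16 (SE, adjusted p = 0.0033) and -1.10 ± 0.16 (SE, adjusted p = 5.2e-05). F5 was above TG6 at the late stage (0.63 ± 0.18, adjusted p = 0.047) and at the mature stage (0.54 ± 0.16, adjusted p = 0.048). Per kb of transcript, Pdk1 was 89.5% ± 0.698 (SD, n = 3) of Pdk1 plus Pdk2 in mature TG6 and 63.4% ± 5.65 (SD, n = 3) in late F5.

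The median log2 fold change of the 31 members was 0.17, 0.25 and 0.32 between OT-1 and F5 at the 3 stages, and 0.19, 0.07 and -0.12 between F5 and TG6. Between OT-1 and F5, 9 members were higher and 3 lower in OT-1 at the early stage (7.81% and 4.88% of all symbols). At the late stage 10 were higher and 3 lower (13.6% and 10.4%), and at the mature stage 13 were higher and 3 lower (13.3% and 10.1%). Gpi1, Pgk1, Pgam1, Pkm and Ldha were called higher in OT-1 than in F5 at all 3 stages (4.21% of all symbols), and Ldhb and Pdk2 lower (2.31%). Under scaling to equal totals, 6, 8 and 5 members were called higher at the 3 stages (6.16%, 11.5% and 8.34% of all symbols) and 3 lower at each (7.95%, 13.5% and 15.9%). At the mature stage 9 were called without F5 replicate 1 and 10 without OT-1 replicate 1, in place of 16. No share of all symbols is given for these 2 fits, so whether the members lost more calls was not shown. Hk2 was higher in OT-1 than in F5 by 2.58 ± 0.56 (SE, adjusted p = 0.003) at the early and 2.32 ± 0.56 (SE, adjusted p = 0.004) at the late stage.

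Between F5 and TG6, 1 member was called higher and 1 lower in F5 at the early stage (3.12% and 3.35% of all symbols), 1 and 1 at the late stage (1.75% and 3.23%), and 1 and 2 at the mature stage (2.14% and 4.5%). The members called were Aldoa, Pdk1, Pdk2 and, at the mature stage, Pkm (-0.31 ± 0.09, adjusted p = 0.033). When only the 2 groups entered the fit, 9 members were higher and 1 lower in F5 at the early stage, against 5.58% and 4.57% of all symbols in that fit. The same kind of fit called no member at the late stage (8 at an unadjusted p under 0.05) and none at the mature stage (2 at an unadjusted p under 0.05). With libraries scaled to equal totals, the late call of Pdk2 was lost (adjusted p = 0.099), and 2 were higher and 2 lower at the mature stage. These calls also moved with single libraries. Where no share of all symbols stands beside a count, the count is of members alone. The 2 early calls became 0 without TG6 replicate 3 (10 members at an unadjusted p under 0.05), 1 without TG6 replicate 1, F5 replicate 1 or F5 replicate 3, and 3 without F5 replicate 2. The 2 late calls became 0 without TG6 replicate 1, TG6 replicate 2 or F5 replicate 2 (6, 4 and 6 members at an unadjusted p under 0.05) and 1 without F5 replicate 3. The 3 mature calls became 1 without TG6 replicate 1 or any 1 F5 replicate, and without TG6 replicate 3 the calls of Pkm (adjusted p = 0.14) and Pdk2 (adjusted p = 0.18) were lost and that of Ldhb was gained, which leaves 1 higher and 1 lower (3.59% and 5.04% of all symbols). The comparisons of OT-1 with F5 and with TG6 share the OT-1 libraries.

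The comparisons between stages within a line ask how these genes move as positive selection proceeds. From the early to the late stage, 3 members rose and 3 fell in TG6 (12.1% and 13.3% of all symbols), 6 rose and 8 fell in F5 (12.7% and 14%), and 4 rose and 6 fell in OT-1 (12.7% and 14%). With the mouse as a block, 7 rose and 9 fell in OT-1 (17.3% and 18.3% of all symbols). Under scaling to equal totals, 4 rose and 10 fell in F5 (11.5% and 15.4%). The F5 total of 14 was 9 without early replicate 1, 8 without early replicate 2, 9 without early replicate 3 and 6 without late replicate 3, and the OT-1 total of 10 was 5 without early replicate 1 or without late replicate 3. From the late to the mature stage, 12 rose and 2 fell in TG6 (14.5% and 7.79%), 8 rose and 4 fell in F5 (12.2% and 8.31%), and 9 rose and 5 fell in OT-1 (14% and 10.4%). The TG6 total of 14 was 12 without mature replicate 3, and it was lower without either late library, which leaves a lone sample. For the totals with a library left out, no share of all symbols is given. When only the 2 groups compared entered the fit, 4 rose and 1 fell in F5 (4.85% and 2.76% of all symbols), and 0 were called in TG6 (2.86% and 0.996%), where 11 had an unadjusted p under 0.05.

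Ldhb fell at every step in every line. From the early to the late stage the change was -1.5 ± 0.18 (SE, adjusted p = 1.8e-06) in TG6, -0.96 ± 0.16 (SE, adjusted p = 0.00012) in F5 and -1.57 ± 0.16 (SE, adjusted p = 6e-07) in OT-1. From the late to the mature stage the changes were -1.07 ± 0.18 (SE, adjusted p = 0.0002), -0.81 ± 0.16 (SE, adjusted p = 0.00094) and -0.67 ± 0.16 (SE, adjusted p = 0.0044). The mean over libraries went from 5717 ± 514 to 994 ± 335 (SD, n = 3 each) in TG6 and from 2509.7 ± 217 to 529 ± 30.5 (SD, n = 3 each) in OT-1. Ldha was not called between the early and the late stage in any line, and it rose from the late to the mature stage in TG6 (0.69 ± 0.18, adjusted p = 0.0081) and OT-1 (0.49 ± 0.16, adjusted p = 0.029).

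Eno1 and Pkm rose from the early to the late stage in all 3 lines. Eno1 rose by 0.88 ± 0.11 (SE, adjusted p = 2e-06) in TG6, 0.56 ± 0.10 (SE, adjusted p = 0.00013) in F5 and 0.34 ± 0.10 (SE, adjusted p = 0.011) in OT-1. Pkm rose by 0.69 ± 0.10 (SE, adjusted p = 1.5e-05), 0.30 ± 0.09 (SE, adjusted p = 0.014) and 0.34 ± 0.09 (SE, adjusted p = 0.0062) in the same lines. Aldoa rose in TG6 (0.91 ± 0.12, adjusted p = 3.3e-06) and F5 (0.72 ± 0.10, adjusted p = 1.7e-05), while the change in OT-1 was 0.24 ± 0.10 (SE, adjusted p = 0.09) and passed the threshold with the mouse as a block (adjusted p = 0.037).

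Several members were lowest at the late stage. The late mean was the lowest of the 3 stages for 11 members in TG6, 15 in F5 and 14 in OT-1, against 31.4%, 31.2% and 31.3% of all symbols tested. Members that both fell to the late stage and rose again to the mature stage were Pgls in TG6, 6 in F5 (Tpi1, Pgk1, Pgam1, G6pdx, Pgls and Tkt) and 4 in OT-1 (Gapdh, Pgk1, G6pdx and Tkt). Of all symbols tested, 4.96% in TG6, 6.63% in F5 and 7.15% in OT-1 were called in both of these steps in the same way. Without TG6 mature replicate 3, Pgls was again the member called in both steps in TG6, with 3.74% of all symbols. Tkt in OT-1 had 4633, 4736 and 4453 at the early stage, 3383, 3139 and 3069.8 at the late stage and 6424, 6835 and 5933 at the mature stage. The late libraries were below all libraries of the other stages, with changes of -0.53 ± 0.16 (SE, adjusted p = 0.02) and then 1.00 ± 0.16 (SE, adjusted p = 0.00015). In F5, Tpi1 had 1222, 1621 and 1269.9, then 589, 577 and 435, then 968, 1807 and 1143, with changes of -1.36 ± 0.30 (SE, adjusted p = 0.0015) and 1.25 ± 0.30 (SE, adjusted p = 0.004).

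The cell division genes were also lowest at the late stage, where 19 of 20 fell in TG6, 19 in F5 and 20 in OT-1 (13.3%, 14% and 14% of all symbols). As many of the 20 rose to the mature stage (14.5%, 12.2% and 14% of all symbols). Between OT-1 and TG6, 1 of the 20 was called higher in OT-1 at the early stage (15.4% of all symbols), 11 higher and 1 lower at the late stage (9.34% and 6.21%), and 2 higher at the mature stage (4.67%). Without TG6 mature replicate 3, 12 of the 20 were called higher in mature OT-1, against 15% of all symbols. In the same setting 19 rose from the late to the mature stage in TG6, with no share of all symbols given for that step. Their summed value at the late stage was 2953 and 3010 in TG6 and 5552 to 8804 in OT-1. Late F5 replicate 2 stood apart, with a sum of 13476 against 2787 and 3050, while the 3 late F5 libraries held 19601, 17054 and 15631 for Gapdh and 2644, 2749 and 2406 for Pgk1. The part of cell division in the members' differences was not tested.

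**Figure D4:**
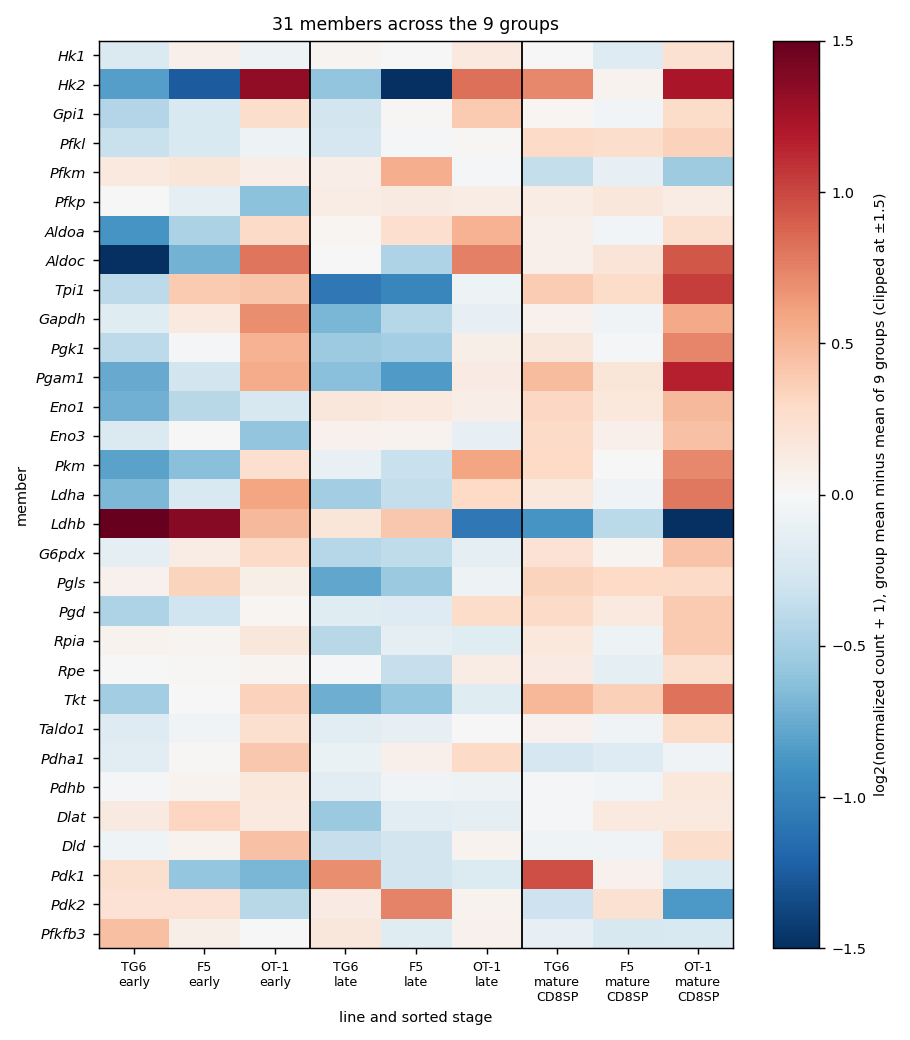
Group means of log2(normalized count + 1) of the 31 members (rows) in the 9 groups (columns, by stage and then line), minus each member's mean over the 9 groups, in colour clipped at ±1.5. Ldhb goes from red at the early stage to blue at the mature stage in all 3 lines. Pdk1 is higher on the colour scale in TG6 than in the other lines at each stage, and Tpi1, Gapdh, Pgk1, Pgam1 and Tkt are blue in late TG6 and late F5.

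**Figure D5:**
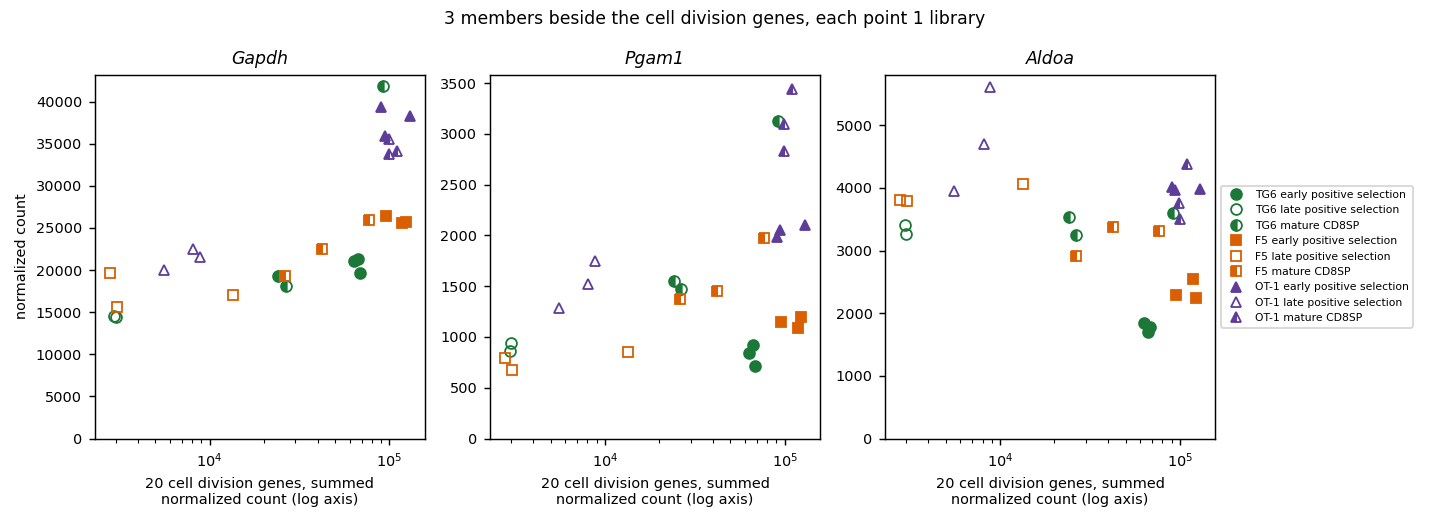
Normalized counts of Gapdh, Pgam1 and Aldoa (y axes from 0) against the summed normalized count of 20 cell division genes (log x axis), with each point 1 library, colour and shape the line and filling the stage. Late libraries lie between 2787 and 13476 on the x axis and early and mature ones at 24148 or above, and TG6 mature replicate 3, at 91698, lies beside the OT-1 mature libraries for Pgam1.

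Pdk2 and Pfkm moved otherwise. Pdk2 rose from the early to the late stage in F5 (0.53 ± 0.16, adjusted p = 0.019) and OT-1 (0.47 ± 0.16, adjusted p = 0.037) and fell again to the mature stage (-0.51 ± 0.16, adjusted p = 0.028 and -0.92 ± 0.16, adjusted p = 0.0003). Pfkm fell from the late to the mature stage in TG6 (-0.45 ± 0.15, adjusted p = 0.031), F5 (-0.67 ± 0.13, adjusted p = 0.00086) and OT-1 (-0.51 ± 0.13, adjusted p = 0.0082). Pfkp rose from the early to the late stage in OT-1 (0.73 ± 0.10, adjusted p = 2.4e-05), from 1596, 1424 and 1506 to 2655, 2676 and 2204, while its changes in TG6 and F5 were 0.10 ± 0.12 (SE, adjusted p = 0.59) and 0.28 ± 0.10 (SE, adjusted p = 0.05). Pdha1 fell from the late to the mature stage in F5 (-0.27 ± 0.09, adjusted p = 0.041) and OT-1 (-0.34 ± 0.09, adjusted p = 0.0097).

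Whether the difference of OT-1 from TG6 itself changed with stage was tested as an interaction. Against the early stage, 1 member had a higher and 1 a lower difference at the late stage (0.947% and 1.09% of all symbols), and 1 had a higher and 3 a lower difference at the mature stage (1.28% and 2.91%). Aldoa had the largest of these changes, -0.67 ± 0.15 (SE, adjusted p = 0.024) at the late stage and -1.01 ± 0.15 (SE, adjusted p = 0.00018) at the mature stage. In Pkm the difference shrank by the mature stage (-0.63 ± 0.12, adjusted p = 0.0032), and in Gpi1 as well (-0.45 ± 0.13, adjusted p = 0.042). For Pfkp it went from a deficit in OT-1 to near 0, a change of 0.63 ± 0.15 (SE, adjusted p = 0.035) and 0.62 ± 0.15 (SE, adjusted p = 0.014). With libraries scaled to equal totals, 1 was higher and 2 were lower at the late stage. No share of all symbols is given for that fit or for fits with a library left out. Up to 3 members passed at the late stage when any 1 library was left out, with none passing without TG6 early replicate 3, TG6 late replicate 1 or 2, OT-1 early replicate 2, or OT-1 late replicate 1 or 2, where 5 or 6 members had an unadjusted p under 0.05. Only 1 passed without TG6 early replicate 2 or OT-1 early replicate 3, and 3 without OT-1 late replicate 3. For the mature stage, 2 passed without OT-1 replicate 1, and without TG6 replicate 3 Gpi1 was lost (adjusted p = 0.067) and Ldhb gained (0.59, adjusted p = 0.044). With the mouse as a block, 1 member had a higher and 4 a lower difference at the late stage, with Pgam1, Eno1 and Pkm added, against 2.1% and 2.37% of all symbols. For the mature stage the block gave 1 and 6, with Ldha, Pgd and Pdha1 added, against 2.77% and 5% of all symbols. Neither Ldhb (-0.07 ± 0.24, adjusted p = 0.96 and 0.33 ± 0.23, adjusted p = 0.6) nor Pdk1 (0.01 ± 0.34, adjusted p = 1 and -0.27 ± 0.32, adjusted p = 0.8) was called.

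At the mature stage the calls between OT-1 and TG6 turned on TG6 replicate 3. Mature TG6 libraries held 19252, 18113 and 41840.1 for Gapdh and 744, 721 and 918 for G6pdx. Mature OT-1 libraries held 35546, 33800.5 and 34162 and 915, 899 and 937 for the same genes, all above TG6 replicates 1 and 2. TG6 replicate 3 was above every OT-1 library for Gapdh and within their range for G6pdx. Without this library 13 members were higher and 3 lower in OT-1, in place of 4 and 3, while 15% and 12.2% of all symbols were called higher and lower. The members gained were Gpi1, Tpi1, Gapdh, G6pdx, Rpia, Tkt, Taldo1, Pdhb and Dld, all higher in OT-1. Among them the differences without that library were 1.18 in Tpi1 (adjusted p = 0.00044), 0.89 in Gapdh and 0.59 in Tkt (adjusted p = 0.0022). When only the 2 groups compared entered the fit, 1 member was called. Without either of the other 2 TG6 libraries, 3 were called, and without OT-1 replicate 1 or 3, 4 were called. For these fits, and for that of only the 2 groups, no share of all symbols is given.

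Genes of the same pathways outside the 31 were called in both directions between OT-1 and TG6 at the early stage, where 15.4% of all symbols were higher and 12.4% lower. Of 10 further glycolytic isozymes tested 3 were higher and 1 was lower in OT-1, of 7 further pentose phosphate and ribose genes 1 was higher and 3 were lower, and of 12 further regulators of phosphofructokinase and of pyruvate entry 1 was higher and 2 were lower. Of 10 glucose and lactate transporters 3 were higher and none was lower, and of 4 gluconeogenic enzymes 2 were higher. H6pd, the pentose phosphate dehydrogenase of the endoplasmic reticulum, was lower in OT-1 than in TG6 (-1.38 ± 0.15, adjusted p = 3.5e-07), with means of 3588 ± 269.9 in TG6 and 1381 ± 129 in OT-1 (SD, n = 3 each). It thus lay opposite to its cytosolic counterparts G6pdx and Pgd. The glucose transporter Slc2a3 was higher in OT-1 than in F5 by 1.5 ± 0.14 (SE, adjusted p = 1.2e-07) and lower in F5 than in TG6 (-0.74 ± 0.14, adjusted p = 0.0013) at the early stage.

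Of 10 genes listed as regulators, none was called higher and 2 were called lower in OT-1 than in TG6 at the early stage, against 15.4% and 12.4% of all symbols. Hif1a, which encodes the oxygen-regulated factor, had means of 3085 ± 197 in TG6 and 2954 ± 341 in OT-1 (SD, n = 3 each), a difference of -0.07 ± 0.10 (SE, adjusted p = 0.66). These are RNA levels, and the protein was not measured. Myc, a driver of growth and glycolytic genes, had means of 248 ± 92.0 (TG6), 464 ± 65.5 (F5) and 331 ± 92.4 (OT-1; SD, n = 3 each) at the early stage, and OT-1 differed from TG6 by 0.45 ± 0.35 (SE, adjusted p = 0.36). At the late stage Myc was higher in OT-1 than in F5 by 1.22 ± 0.35 (SE, adjusted p = 0.014). From the late to the mature stage it rose in TG6 (1.33 ± 0.39, adjusted p = 0.018) and F5 (1.88 ± 0.35, adjusted p = 0.00048). The 2 regulators called lower in early OT-1 were Epas1 (-1.36 ± 0.25, adjusted p = 0.0003) and Arnt (-0.29 ± 0.10, adjusted p = 0.044), which encode a hypoxia-inducible factor subunit and its dimer partner.

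Levels of the members were compared per kb of transcript. In mature OT-1 thymocytes Gapdh had 27104 ± 724 normalized counts per kb (SD, n = 3), followed by Pkm with 7911 ± 57.1, Ldha with 7778 ± 72.0 and Eno1 with 6509.6 ± 259.8. Pkm and Ldha lay next to each other in this order and close in value. Per kb of coding length, with 1593 bases in Pkm and 1083 in Ldha, Ldha lay above Pkm in mature OT-1. In early TG6 thymocytes the order was Gapdh with 16237 ± 666, Ldhb with 4384 ± 394, Eno1 with 2826 ± 82.1, Ldha with 2815 ± 111 and Pkm with 2757 ± 163 (SD, n = 3 each), so Ldhb was the second highest of the 31 in that group. Eno1, Ldha and Pkm, next to each other in this order, differed by less than the SD of Pkm. The lowest members were Hk2 and Aldoc, with 10.1 ± 3.55 and 1.22 ± 0.960 normalized counts per kb in early TG6.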

How the data were processed

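RNA of sorted thymocytes was sequenced in 26 bulk libraries from 3 TCR transgenic lines at 3 stages, with groups taken from the sample labels. Per the paper's methods and the submitters' processing notes, reads were trimmed with Trimmomatic 0.32, aligned with Bowtie2 2.3.2 and quantified per gene with RSEM 1.2.31, and the counts were scaled with DESeq2. The deposited values are this normalized signal, in counts divided by a factor per library by the authors. Of the values above 0, 41.0 to 43.9% per library were whole within 0.01 after the steps were undone, so whole reads were not recovered and a count test was not run. Totals lay between 16134786 and 18944173 per library. These values carry no gene length, and where levels of different genes were compared they were divided by transcript length. With coding length in its place, 43 of 63 isoform shares by group moved by at least their SD.

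Log2(value + 1) was fitted with limma 3.58.1 in R 4.3.3, with an intensity trend, 9 group means and 17 residual degrees of freedom, on the 16372 symbols at 10 or more in at least 2 libraries. Fold changes on this scale understate the change of low genes. The authors tested counts with DESeq2, for which limma stands in here because only scaled values were used. P-values were adjusted over all symbols per comparison by the Benjamini-Hochberg method. The fit was tested on simulated data. All 31 members are named. From other lists (isozymes, other pentose phosphate genes, regulators of phosphofructokinase and pyruvate entry, gluconeogenic enzymes, transporters, transcriptional regulators, cell division genes and cell type markers), the rule allowed at most 3 genes per comparison, those with the largest change among called genes with a mean of at least 100 in the higher group, beside near copies, sort markers and regulators. The members and lists were chosen with earlier results of these data known. P-values measure the spread between libraries of a line, and each line is also confounded with its Rag and MHC background.

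The design text says that each of the 3 mice per line was sorted into the 3 populations, and equal numbers within a line were read as 1 mouse, which the labels do not state for each number and which is least certain for late TG6, labelled TG62B. Deviations from the group means correlated at 0.106 to 0.340 in the 9 same-number pairs of F5, 0.0189 to 0.178 in the 9 of OT-1 and 0.0230 to 0.274 in the 7 of TG6, and were over 0.1 in 9, 5 and 2 of these pairs. A fit with the mouse as a block (consensus correlation 0.28) was run as an alternative, along with other pseudocounts (0.1 and 5), other filters (none, or a mean of 50 or more), scaling to equal totals, quantile normalization, a fit of only the groups compared, and each library left out.

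Promoter sequences came from RefSeq (GRCm38.p6). Of the windows, only the 250 bases upstream of each start were searched.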

Additional observations from a re-analysis of the deposited data

Results flagged for a closer look

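In 6 cases the difference of OT-1 from TG6 changed between stages by the interaction test in limma (adjusted over 16372 symbols). From early to late positive selection it changed by 0.63 in Pfkp (adjusted p = 0.035) and by -0.67 in Aldoa (adjusted p = 0.024) on the log2 scale. From early positive selection to mature CD8SP it changed by -0.45 in Gpi1 (adjusted p = 0.042), 0.62 in Pfkp (adjusted p = 0.014), -1.01 in Aldoa (adjusted p = 0.00018) and -0.63 in Pkm (adjusted p = 0.0032). Gpi1 had an adjusted p of 0.056 with libraries scaled to equal totals.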

How the results depend on the processing

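Counts of members called at an adjusted p under 0.05 in limma are given for each comparison, and no member changed direction while called in any alternative run. The counts are of members alone, so they do not show whether the members moved more than all symbols did. For OT-1 against TG6, the 13 late calls became 6 with equal totals and 5 to 11 with 1 library left out, and the 7 mature calls became 4 with quantile normalization, 1 when only the groups compared were fitted and 3 to 16 with 1 library left out. For OT-1 against F5, the 16 mature calls became 8 with equal totals, 9 with quantile normalization and 9 to 15 with 1 library left out. For F5 against TG6, the 2 early calls became 1 with no filter, 10 with only the groups compared and 0 to 3 with 1 library left out. The 2 late calls became 1 with no filter, with equal totals or with quantile normalization, 0 with only the groups compared and 0 to 2 with 1 library left out. The 3 mature calls became 1 with no filter, 0 with only the groups compared and 1 to 2 with 1 library left out. From early to late positive selection, the 6 TG6 calls became 12 with only the groups compared, the 14 F5 calls 6 to 12 with 1 library left out, and the 10 OT-1 calls 5 to 9. From late positive selection to mature CD8SP, the 14 TG6 calls became 0 with only the groups compared and 8 to 15 with 1 library left out, and the 12 F5 calls became 5 with only the groups compared. For the change of the OT-1 against TG6 difference, the 2 late calls became 1 with no filter, 4 with only the groups compared and 0 to 3 with 1 library left out, and the 4 mature calls 2 to 5. The mouse as a block raised the 10 OT-1 calls from early to late positive selection to 16, and the interaction calls to 5 and 7. Of 527 member results the block changed 27, of which 3 were lost (Tpi1 and Tkt in late OT-1 against TG6, and Tkt in mature OT-1 against F5), and it moved no other count by over 1.5 times. Of these counts of 0 in limma, those of fits of only the groups compared had 8 (late F5 against TG6), 2 (mature F5 against TG6) and 11 (TG6 from late to mature) members at an unadjusted p under 0.05, and those with 1 library left out had 4 to 10. The causes of these changes were not tested. Over the same 527 results, a pseudocount of 5 changed none, 0.1 changed 4, equal totals 37, quantile normalization 35 and no filter 27, a fit of only the groups compared lost 51 calls and gained 37, and a mean of 50 or more changed 13 of 510. The late TG6 group has 2 libraries, so leaving 1 out leaves a lone sample assumed to vary like the other groups.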
